A study of Xenopus tropicalis with 2 samples.

Results

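The genes described here encode the ephrins, semaphorins, slits and netrins, which are ligands, and their Eph, plexin, neuropilin, Robo and Unc5 receptors. They were chosen by symbol alone: 33 ligand genes, 30 receptor genes and unc50, a Golgi protein whose symbol matches but which is no receptor and is counted apart, made up 64 of the 21821 genes in the count matrix. The data are single-nucleus RNA-seq counts of wild-type Xenopus tropicalis whole embryos at stage 10.5, the early gastrula. Eggs were fertilized in vitro, nuclei of pooled embryos were purified on sucrose, and 1 pool was barcoded by split-pool labelling and sequenced as 2 sublibraries. The sublibraries are technical replicates of that pool, so the spread between them holds no variation between embryos, no test between groups can be made, and no p-value is given. Every comparison is between classes of nuclei within the pool.

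Guidance molecules are best known for steering growing axons: a ligand on or from one cell binds a receptor on another and turns its cytoskeleton, most often away from the source. The same families act in early embryos, where Eph receptors and ephrins on touching cells keep tissues apart, and in the Xenopus gastrula this repulsion maintains the boundary between ectoderm and mesoderm. Slits act through Robo receptors, class 3 semaphorins through neuropilins paired with plexins, other semaphorins mainly through plexins, and netrins through Dcc and Unc5 receptors. At this stage the Xenopus ectoderm has a superficial, polarized outer layer and a deep inner layer, while mesoderm and endoderm move inside at the blastopore.

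The files held 44341256 and 44026454 UMIs (unique molecular identifiers, one per RNA molecule captured), and 4245 and 4229 barcodes reached 1500 detected genes. After removal of doublets 7690 nuclei remained, with a median of 4503.5 and 4517.5 UMIs. The sublibraries share 206 combinations of barcode wells among these barcodes, and each was counted as a nucleus of its own sublibrary. Clustering without the guidance genes gave 16 clusters, of which 12 could be named from marker genes: ectoderm-like (4225 nuclei), mesoderm-like (1481) and endoderm-like (585), divided into inner and outer, neural and non-neural, or dorsal and ventral classes, which are called by those names below. The outer neural class rests on sox2, sox3 and sox21 alone, since the other neural markers on the list were not raised in it. Levels are CPM, a gene's UMIs in the summed nuclei of a class scaled to a total of 1000000 UMIs, and a gene is called higher or lower when its log2 ratio of CPM + 1 reached 2-fold in both sublibraries together and in each of them.

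Of the guidance genes, 24 of 33 ligands and 29 of 30 receptors had at least 50 UMIs in the nuclei kept, as did unc50. Every plexin, neuropilin, EphB, Robo, Slit, Unc5 and ephrin-B gene in the matrix passed this minimum, whereas among netrins ntn3 passed and ntn1 and ntn4 did not. The other genes under it were sema3b, sema3e, sema3fl, sema6c, sema7a, efna2, epha8 and 1 of the 2 rows with the symbol efna3. Reads of those 2 efna3 rows may have been divided between them, so the level of efna3 is uncertain, and the row with enough UMIs is the one meant below.

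The germ layers divided the guidance genes without dividing ligands from receptors. Among the named nuclei 23 ligands and 28 receptors had enough UMIs. Of these ligands 7 had their highest level in ectoderm, 7 in mesoderm and 9 in endoderm. Of the receptors 10 were highest in ectoderm, 7 in mesoderm and 11 in endoderm. Over all genes tested the shares were 41.3%, 29.9% and 28.9%, and in endoderm the shares of ligands, 39.1%, and of receptors, 39.3%, stood above that of all genes.

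In ectoderm over mesoderm and endoderm, 14 of 51 guidance genes were called, 4 higher (background 5.29%) and 10 lower (background 7.33%), against 12.6% called either way among all genes with enough UMIs, where the background is the share of those genes called in that direction. In mesoderm over ectoderm and endoderm 5 were called, 3 of them higher (background 3.00%) and 2 lower (background 6.51%), a share of 9.80% that is near the background of 9.51%. This was the lowest mesoderm count over the alternatives, which ranged from 5 to 11. With the unnamed cluster 3 described below counted as mesoderm, 10 were called, 8 of them higher. At resolution 0.5 there were 11, of which 9 were higher. Mesoderm held 2175 and 2173 nuclei at these settings, in place of 1481. The share of all genes called was not counted at these settings, so the counts are not read as an excess in mesoderm. In endoderm over ectoderm and mesoderm 20 were called, 13 higher (background 8.74%) and 7 lower (background 6.97%), against 15.7% of all genes. The count was higher in endoderm than in ectoderm here, but not at a minimum of 1000 genes per nucleus (21 in endoderm and 22 in ectoderm), at resolution 0.5 (17 and 18) or with 4000 variable genes (17 in both). The median log2 ratio of the guidance genes in it was -0.18, beside -0.17 over all genes, so changes there are read against a shift of that size.

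**Figure D1:**
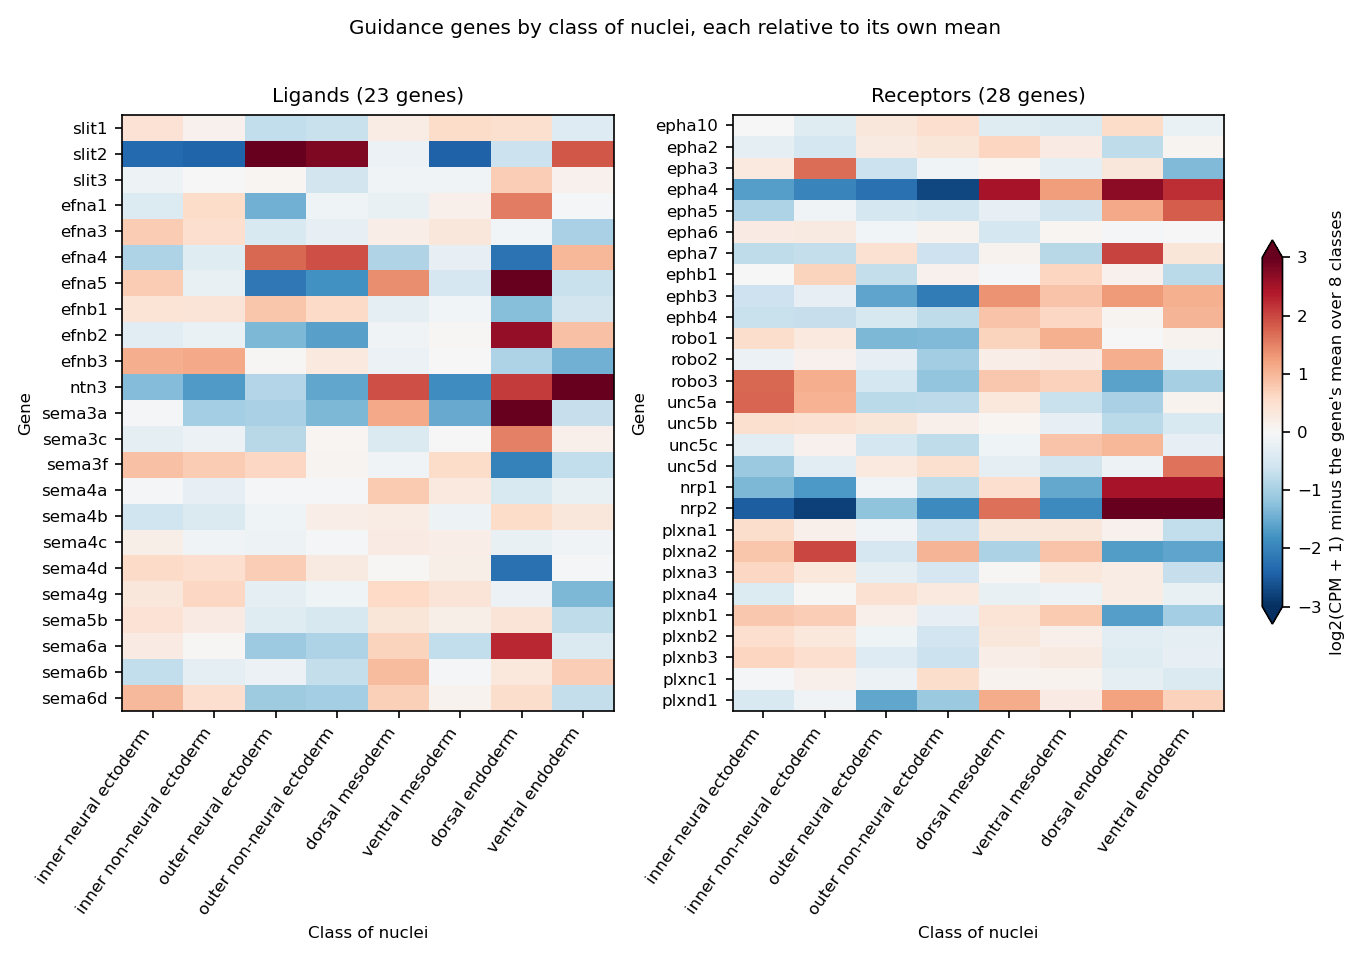
Level of each guidance gene with enough UMIs in the 8 named classes of nuclei (columns), as log2(CPM + 1) minus that gene's mean over the classes (colour, cut at 3 on either side), with ligands on the left and receptors on the right, by family. slit2 is raised in both outer ectoderm classes, epha4 in mesoderm and endoderm, and nrp1 and nrp2 in both endoderm classes.

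Among Eph receptors 1 of 7 EphA and 2 of 3 EphB genes were called lower in ectoderm than in mesoderm and endoderm (background 7.33%). No Eph receptor was called higher (background 5.29%). epha4, a receptor that binds ephrins of both the A and the B class, was at 363 and 391 CPM in ectoderm in the sublibraries, against 7105 and 7183 CPM in mesoderm and endoderm. It was 18.9-fold (95% interval 18.5 to 19.4) lower in ectoderm, with a log2 ratio of -4.24, SD 0.07, where the SD is that between the 2 sublibraries and intervals cover counting error only. The log2 ratios of other genes are given in parentheses with the same SD. Both layers inside contributed, since epha4 stood at 6569 CPM in mesoderm and 8449.8 CPM in endoderm, and it was called higher in each of them (log2 ratios 2.15 and 2.07). The ectoderm classes had epha4 at 7.08% (outer non-neural) to 15.1% (inner neural) of its 3296 CPM in barcodes with under 300 genes. The part of free RNA from other nuclei in the ectoderm level of epha4 was not tested. ephb3, a receptor of ephrin-B ligands, was at 686 and 676 CPM in ectoderm, against 2609.8 and 2754 CPM in mesoderm and endoderm (log2 ratio -1.98, SD 0.07). ephb4, the receptor that pairs with ephrin-B2 between arteries and veins later in development, was at 267 and 267 CPM in ectoderm, against 697 and 722 CPM in mesoderm and endoderm (log2 ratio -1.40, SD 0.04). epha4, ephb3 and ephb4 were the guidance genes called higher in mesoderm, with ratios of 1.48 for ephb3 and 1.16 for ephb4. ephb3 was also called higher in endoderm (log2 ratio 1.16), the germ layer of its highest level.

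Their ligand efnb2 was higher in endoderm and was not called in mesoderm, where mesoderm leaves out an unnamed cluster (cluster 3 below) with all ventral mesoderm markers raised and efnb2 at 1707 and 1721 CPM. It was at 3043 and 3095 CPM in endoderm, 729 and 821 CPM in mesoderm and 514 and 525 CPM in ectoderm, and it was 5.23-fold (95% interval 5.1 to 5.36) higher in endoderm than in the other layers together. The other ephrin-B genes went the opposite way: efnb1 and efnb3 were lower in endoderm (log2 ratios -1.19 and -1.81), and efnb3 was at 88.7 and 81.3 CPM in ectoderm, against 40.0 and 33.9 CPM in mesoderm and endoderm (1.18, SD 0.08). Of the membrane-anchored ephrin-A genes, efna5 was lower in ectoderm, at 24.2 and 27.4 CPM, against 79.8 and 76.6 CPM in mesoderm and endoderm (-1.56, SD 0.16). efna4 was higher in ectoderm, at 508 and 528 CPM, against 236 and 238 CPM (1.13, SD 0.03), and the ectoderm layers differed in it as described below. In mesoderm efna4 was called lower (-1.36). efna1 and efna3 were called in none of the 3 germ-layer comparisons. epha5 and epha7 were called higher in endoderm at low levels, 26.3 CPM for epha5 and 32.1 CPM for epha7. The epha5 level was under its 77.8 CPM in barcodes with under 300 genes, and the part of free RNA from other nuclei in it was not tested. By contrast epha2, a receptor of ephrin-A ligands, was at 1110.0 CPM in ectoderm, 1658 CPM in mesoderm and 991 CPM in endoderm and was not called.

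The neuropilins are co-receptors of class 3 semaphorins, and both were higher in endoderm. nrp2 had the largest ratio of any guidance gene in endoderm over the other layers. nrp2 was at 2492 and 3029.9 CPM in endoderm, 234 and 247 CPM in mesoderm and 25.5 and 29.5 CPM in ectoderm, which is 32.9-fold (95% interval 31.4 to 34.4) higher in endoderm than in the other layers together. Its log2 ratio in endoderm, 5.02, was 3.40 at clustering resolution 0.5, and the unnamed cluster 3 outside these layers had nrp2 at 1554 CPM. After every nucleus was thinned to 2500 UMIs, 79.7% (76.2 to 82.8%; 88.5% before thinning) of endoderm nuclei and 4.68% (3.91 to 5.56%; 7.93% before thinning) of inner ectoderm nuclei held an nrp2 UMI. Free RNA gives UMIs in nuclei that do not express a gene. nrp2 was at 21.5 CPM in inner neural and 17.1 CPM in inner non-neural ectoderm. These levels were 4.16% and 3.30% of its 517 CPM in barcodes with under 300 genes. The part of free RNA in the inner ectoderm share was not tested, so that share is not read as expression. nrp1 had the same order of layers, at 84.6 and 129 CPM in endoderm, 17.2 and 18.0 CPM in mesoderm and 6.94 and 10.1 CPM in ectoderm (3.17, SD 0.22 in endoderm). The netrin gene ntn3 had 111 UMIs in endoderm and 74 in mesoderm, against 17 in the larger ectoderm, or 31.2 and 36.7 CPM in endoderm, 10.7 and 9.12 CPM in mesoderm and 0.880 and 0.764 CPM in ectoderm. The endoderm log2 ratio of ntn3, 3.04, was 1.55 at resolution 0.5.

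Secreted semaphorins were divided between the layers. sema3a, the ligand of Nrp1 and plexin-A receptors, was at 244 and 159 CPM in endoderm, 25.0 and 28.5 CPM in mesoderm and 11.6 and 10.8 CPM in ectoderm (3.64, SD 0.43 in endoderm). sema3f, the ligand of Nrp2, ran the other way, at 889 and 899 CPM in endoderm, 2388 and 2347 CPM in mesoderm and 3228 and 3175 CPM in ectoderm, and was 3.34-fold (95% interval 3.21 to 3.46) lower in endoderm. sema6a, a transmembrane semaphorin that binds plexin-A receptors, was higher in endoderm at 611 and 667 CPM, against 289 CPM in mesoderm and 216 CPM in ectoderm (1.44, SD 0.08). sema3c was called higher in endoderm on 15 UMIs there. sema4d, a ligand of plexin-B1, was called lower in endoderm (-1.09, SD 0.02), and so was its receptor gene plxnb1 (-1.80, SD 0.12).

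**Figure D2:**
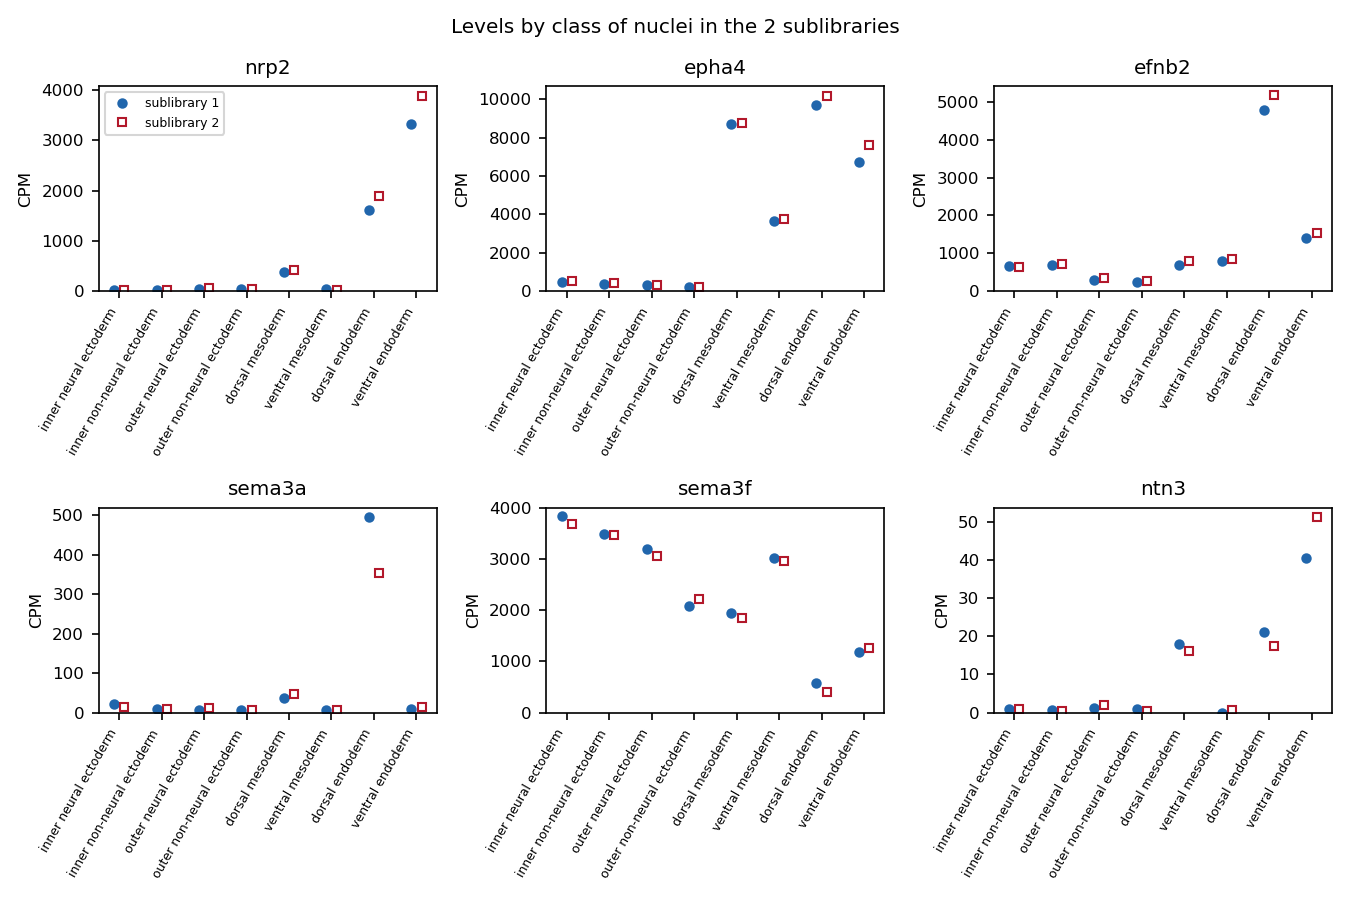
CPM of 6 guidance genes (panels) in the 8 named classes of nuclei, with a filled circle for sublibrary 1 and an open square for sublibrary 2; the vertical axes start at 0 and differ between panels. nrp2 and ntn3 are highest in ventral endoderm, efnb2 and sema3a in dorsal endoderm, and sema3f is lowest in both endoderm classes.

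In ectoderm 1 of 28 receptors was called higher, where 5.29% of all genes were. plxna2, a plexin that serves class 3 and class 6 semaphorins, was that receptor, at 109 and 118 CPM in ectoderm, against 46.0 and 33.1 CPM in mesoderm and endoderm (1.5, SD 0.41), and it was lowest in endoderm at 20.4 and 8.72 CPM. With 1000 variable genes its ectoderm ratio was 0.57, under 2-fold. robo3, a Robo receptor that in mammals controls midline crossing, was low in endoderm, at 137 and 138 CPM, against 554 CPM in mesoderm and 617 CPM in ectoderm (-2.12, SD 0.01). unc5d, a netrin receptor of the Unc5 family, was called higher in endoderm on 35 UMIs, and plxnd1 was called lower in ectoderm, where it had 46 UMIs, against 82 in mesoderm and endoderm. The Unc5, Robo and class 4 and 5 semaphorin genes otherwise stayed within 2-fold of the other layers in the comparison of ectoderm with the rest, except unc5a, whose pooled log2 ratio of 1.02 did not reach 2-fold in each sublibrary. The guidance genes called neither between germ layers nor between the layers of the ectoderm were efna1, efna3, epha2, epha6, epha10, ephb1, plxna1, plxna3, plxna4, plxnb2, plxnc1, robo2, unc5b, unc5c, slit1, slit3 and the semaphorins sema4a, sema4b, sema4c, sema4g, sema5b and sema6b, with log2 ratios of -1.02 to 0.95 in endoderm over the other layers. Of the plexins 2 of 9 were called in ectoderm over the rest, against 12.6% of all genes.

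slit2 set the outer layer of the ectoderm apart from the inner layer more than any other guidance gene. It was at 67.7 and 66.9 CPM in inner ectoderm, against 2871 and 2877 CPM in outer ectoderm, 42.7-fold (95% interval 39.9 to 45.8) lower in the inner layer, with a log2 ratio of -5.40, SD 0.01. A slit2 UMI was found in 13.4% (12.1 to 14.8%; 21.7% before thinning) of inner and 87.5% (85.8 to 89.1%; 92.8% before thinning) of outer nuclei after thinning. Both outer classes had it, the neural at 3552 and the non-neural at 2443 CPM, and both inner classes were at or under 68.8 CPM, which is 9.83% of the level in barcodes with under 300 genes. Between germ layers slit2 was called higher in ectoderm and lower in mesoderm, each over the rest (log2 ratios 1.57 and -2.40). slit1 and slit3, the other Slit ligands, were not called between the ectoderm layers.

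The Robo receptor genes robo3 and robo1 were high in the opposite layer. robo3 was at 888 and 897 CPM in inner ectoderm, against 181 and 170.1 CPM in outer ectoderm, 5.08-fold (95% interval 4.81 to 5.38) higher in the inner layer (2.34, SD 0.08). After thinning 80.0% (78.4 to 81.5%; 89.2% before thinning) of inner and 29.6% (27.3 to 31.9%; 44.3% before thinning) of outer nuclei had a robo3 UMI. robo1 was at 77.0 and 69.4 CPM in inner ectoderm, against 16.6 and 25.6 CPM in outer ectoderm (1.74, SD 0.52), and robo2, at 8.16 and 4.77 CPM, was not called. slit2, the ligand, and robo3 and robo1, the receptors, were thus high in different layers of 1 tissue.

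Altogether 14 of 46 guidance genes were called between the ectoderm layers, 10 higher (background 6.17%) and 4 lower (background 8.44%) in the inner layer, against 14.6% of all genes. The median log2 ratio over the guidance genes was 0.66, beside 0.17 over all genes. With size factors that remove this shift of all genes, 7 were called higher and 4 lower in the inner layer. The share of all genes called with these size factors was not counted.

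efna4 joined slit2 in the outer layer, at 179.5 and 193 CPM in inner ectoderm, against 1052 and 1046 CPM in outer ectoderm (-2.49, SD 0.08), and an efna4 UMI was found in 32.7% of inner and 89.2% of outer nuclei after thinning. efna5 did the reverse on fewer UMIs, 480 in inner and 55 in outer ectoderm (2.29, SD 0.70). efnb2, at 671 and 669 CPM in inner and 255 and 300.4 CPM in outer ectoderm, and its receptor gene ephb3, at 915 and 889.6 CPM in inner and 306 and 345 CPM in outer ectoderm, were both higher in the inner layer (1.26 for efnb2 and 1.47 for ephb3). efna4 was thus the 1 ephrin gene called higher in the outer layer, while efna5 and efnb2 were called higher in the inner layer.

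Of the semaphorins, sema6d, a transmembrane ligand of plexin-A1, was at 558 and 558 CPM in inner ectoderm, against 159.6 and 162 CPM in outer ectoderm (1.79, SD 0.02). sema6a was also higher in the inner layer (1.14, SD 0.09), and sema3f, sema4a, sema4c and sema4d were not called. Among receptors with fewer UMIs, unc5a had 145 UMIs in inner and 13 in outer ectoderm, epha3 218 in inner and 45 in outer, and plxnb3 599 in inner and 170 in outer, and each was called higher in the inner layer. nrp2 and unc5d were called lower in the inner layer, at 19.3 CPM in inner and 40.7 CPM in outer ectoderm for nrp2, levels at which nuclei that express it cannot be told apart from free RNA, and on 32 UMIs in inner and 51 in outer ectoderm for unc5d.

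**Figure D3:**
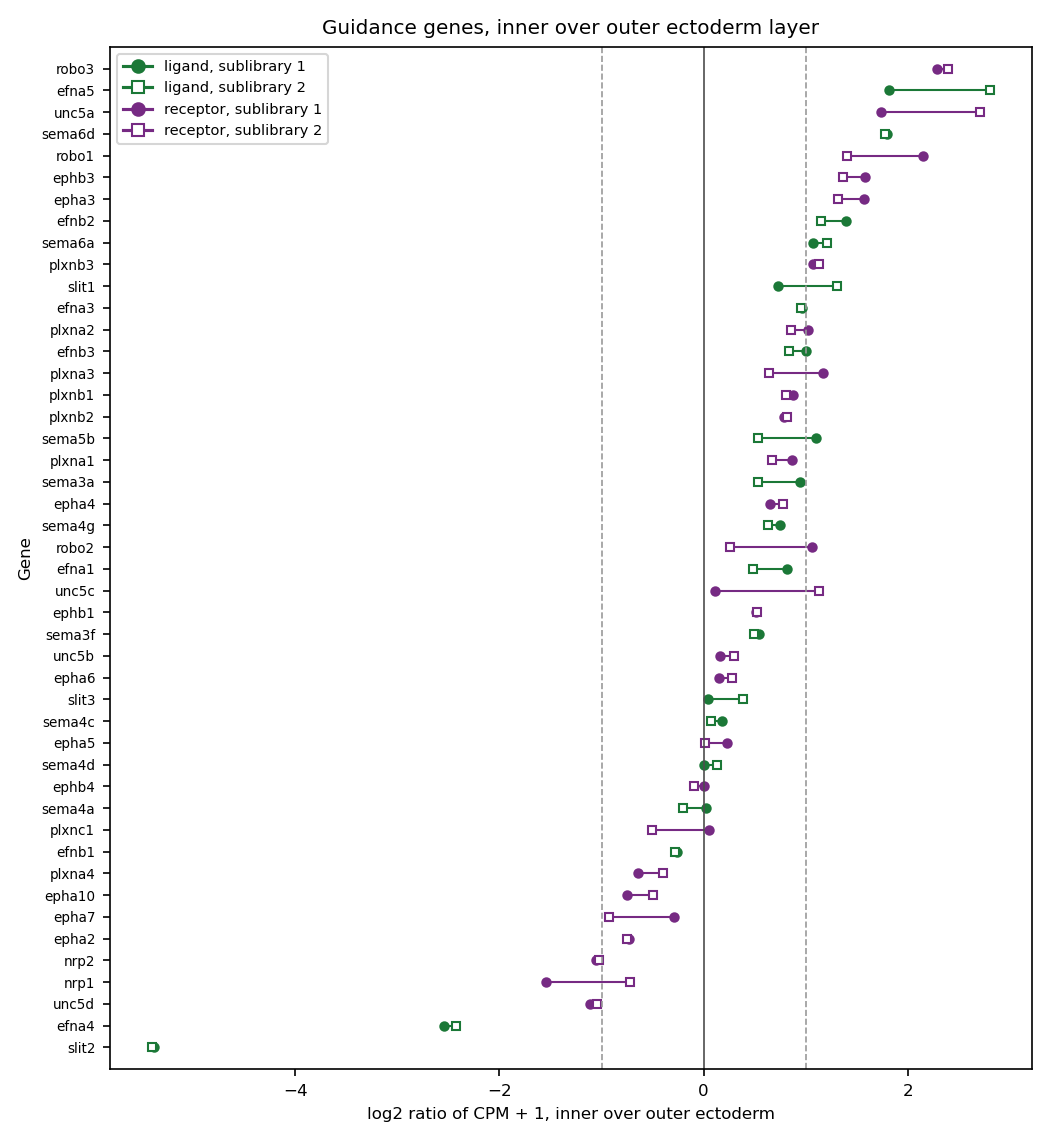
log2 ratio of CPM + 1 in inner over outer ectoderm (horizontal axis) for every guidance gene with enough UMIs (rows), with sublibrary 1 as a filled circle and sublibrary 2 as an open square, ligands in green and receptors in purple; dashed lines mark 2-fold. slit2 and efna4 lie far to the left, and robo3, efna5, unc5a, sema6d and robo1 lead on the right.

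Over the 15 clusters other than a doublet-like one, the level of slit2 correlated with the difference between outer and inner layer marker scores at r = 0.93, efna4 at 0.80, robo1 at -0.79, robo3 at -0.85 and sema6d at -0.90. Of the other genes called between the ectoderm layers, efnb2 was at -0.40, sema6a at -0.42, epha3 at -0.40 and nrp2 at 0.19. These are descriptions across clusters of the same 2 sublibraries, which are not independent samples, and they include the ectoderm clusters in which the genes were called. Ventral endoderm, which carried outer-layer markers (5 of 9 raised), had slit2 at 1227 and 1316 CPM and efna4 at 603 and 546 CPM, whereas dorsal endoderm, in which none of those markers was raised, had slit2 at 234 and 210.1 CPM and efna4 at 62.1 and 59.4 CPM. robo3 did not follow the ectoderm layers there: it was at 121 and 92.7 CPM in dorsal and 153 and 172 CPM in ventral endoderm. In mesoderm cluster 13, led by chrd.1, had slit2 at 637 and 681 CPM, against 87.5 and 119 CPM in cluster 7, the other dorsal mesoderm cluster.

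**Figure D4:**
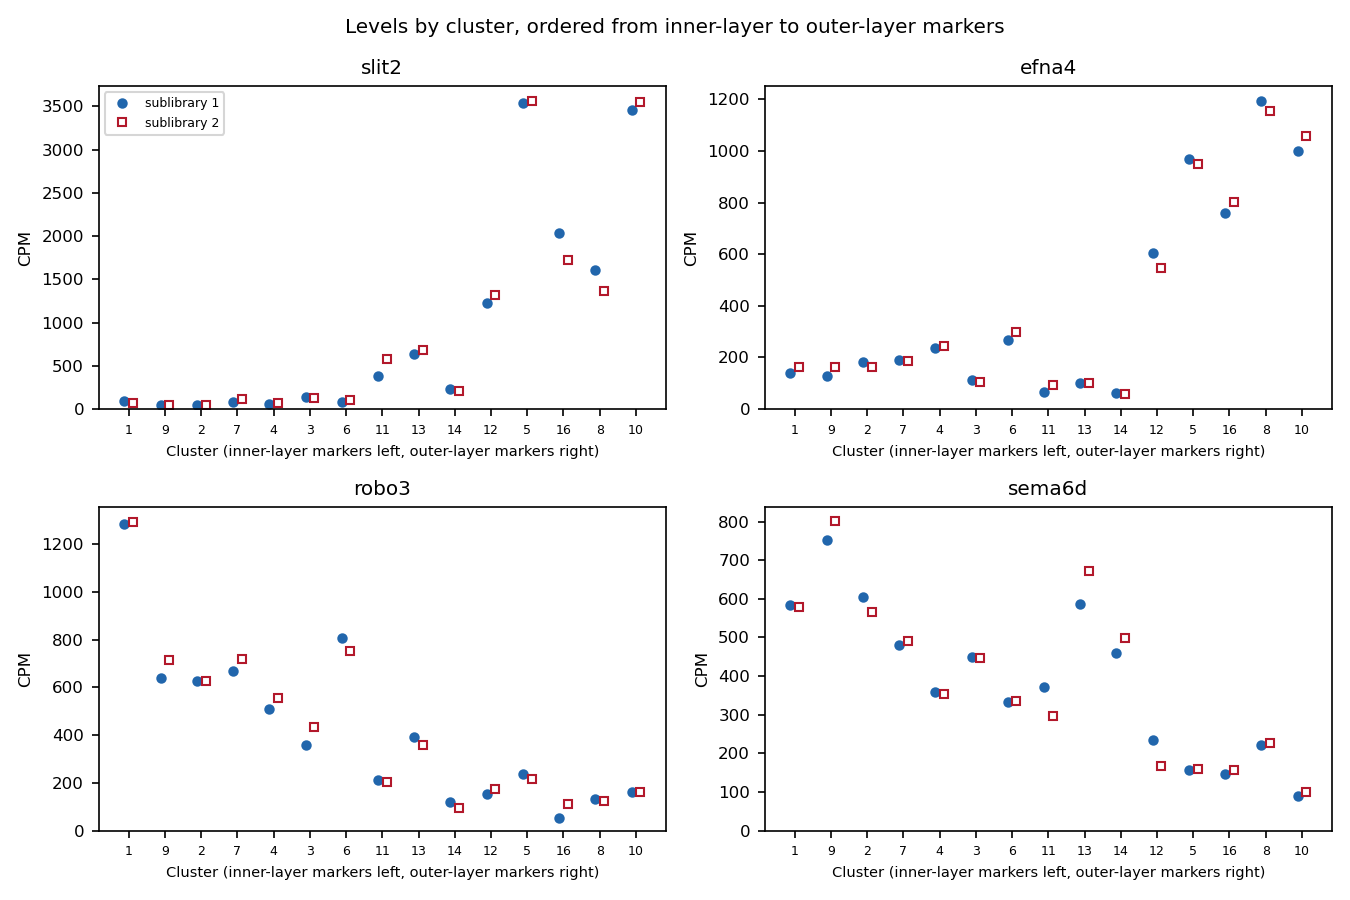
CPM of slit2, efna4, robo3 and sema6d (panels) in 15 clusters, ordered along the horizontal axis from the strongest inner-layer to the strongest outer-layer marker scores, with a filled circle for sublibrary 1 and an open square for sublibrary 2. slit2 and efna4 are high in clusters 12, 5, 16, 8 and 10 on the right, where robo3 and sema6d are low.

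In inner neural over inner non-neural ectoderm, 2 of 43 guidance genes were called, both receptors and both lower (background 1.95%, and 1.19% for higher), a share of 4.65% that is near the 3.14% of all genes called either way. Of the 1289 inner non-neural nuclei, 738 were in cluster 2, which was led by pax3, a gene on the neural marker list. The paper describes a separate inner neural plate border state, and the part of such nuclei in this contrast was not tested. plxna2 was at 86.4 and 84.9 CPM in inner neural ectoderm, against 181 and 206 CPM in inner non-neural ectoderm (-1.17, SD 0.15). epha3 was at 9.99 and 7.97 CPM in inner neural ectoderm, against 25.9 and 24.5 CPM in inner non-neural ectoderm (-1.40, SD 0.15). robo3, at 1079 and 1099 CPM in neural and 708 and 686 CPM in non-neural inner ectoderm, and efna5, at 42.6 and 57.9 CPM in neural and 25.0 and 24.8 CPM in non-neural, leaned towards neural without reaching the limit.

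Dorsal and ventral endoderm were told apart mainly by ligands. 11 of 33 guidance genes were called, 6 higher (background 8.98%) and 5 lower (background 13.9%) in dorsal endoderm, against 22.9% of all genes. These were 9 of 17 ligands and 2 of 16 receptors. The classes held 265 dorsal and 320 ventral nuclei, fewer than any other.

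sema3a was at 495 and 354 CPM in dorsal endoderm, against 9.28 and 13.1 CPM in ventral endoderm, 38.2-fold (95% interval 24.5 to 62.9) higher, and a sema3a UMI was found in 41.1% (35.1 to 47.3%; 55.5% before thinning) of dorsal and 2.81% (1.29 to 5.27%; 5.62% before thinning) of ventral nuclei after thinning. efna5 was at 257 and 293 CPM in dorsal endoderm, against 29.0 and 7.64 CPM in ventral endoderm, where the sublibraries differed most (3.85, SD 1.40). sema6a was at 1084 and 1298 CPM in dorsal and 171 and 192 CPM in ventral endoderm (2.70, SD 0.06). Dorsal endoderm, named here from hhex, cer1 and other markers of the anterior endoderm, thus carried the highest level of each of these 3 ligands among the named classes.

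efnb2, at 4789 and 5174 CPM in dorsal and 1413 and 1529 CPM in ventral endoderm (1.75, SD 0.00), and efna1, at 517 and 519 CPM in dorsal and 201 and 146 CPM in ventral endoderm (1.58, SD 0.33), were also dorsal, as was the receptor gene epha7 (1.65, SD 0.63). efna4 (-3.22, SD 0.06), slit2 (-2.51, SD 0.18), sema4d (-2.21, SD 0.57) and sema3f (-1.30, SD 0.42) were lower in dorsal endoderm. nrp2 was at 1604 and 1893 CPM in dorsal and 3321 and 3886 CPM in ventral endoderm (-1.06, SD 0.01), close to the limit, and its ratio was -0.24 at a minimum of 2000 genes. The ratio of efna1 was 0.0789 with guidance and partner genes kept in the clustering.

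The mesoderm clusters differed more among themselves than dorsal and ventral labels describe. In dorsal over ventral mesoderm 9 of 41 guidance genes were called, 8 higher (background 4.44%) and 1 lower (background 2.61%), against 7.06% of all genes. Those higher were ntn3, nrp2, sema3a, slit2, nrp1, efna5, sema6a and epha4, and plxna2 was lower. This contrast depended on the naming of clusters: cluster 3, led by rspo3 and wnt8a, had all 10 ventral mesoderm markers raised but stayed unnamed because fewer of its leading genes were markers of mesoderm than of other layers. Cluster 4, the whole ventral mesoderm class, had 7 of the 10 raised, without tbx6, msgn1 and myf5. It kept its name with 1 leading gene a marker of mesoderm and 1 a marker of other layers. Cluster 7, with 532 of the 828 dorsal mesoderm nuclei, had 7 of 10 dorsal mesoderm markers raised, without chrd.1, gsc and foxj1. None of the leading genes of cluster 7 was a listed marker of a germ layer. 8 of the 9 called genes changed sign under at least 1 alternative, and with cluster 3 counted as ventral mesoderm nrp2 had a log2 ratio of -1.10 in place of 3.58. The levels of the clusters themselves are therefore given.

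nrp2 was at 916 and 939.7 CPM in dorsal cluster 13, led by chrd.1, and 1603 and 1509 CPM in cluster 3, but at 75.3 and 65.9 CPM in dorsal cluster 7, led by plod2, and 37.0 and 27.6 CPM in ventral cluster 4. ntn3 had the same order, at 38.4 CPM in cluster 13, 64.9 CPM in cluster 3, 4.16 CPM in cluster 7 and 0.313 CPM in cluster 4. sema3f ran opposite, at 727 and 722 CPM in cluster 13 and 644 and 769.7 CPM in cluster 3, against 2607 and 2631 CPM in cluster 7 and 3023 and 2962 CPM in cluster 4. Clusters 13 and 3 thus lay together, and apart from clusters 7 and 4, in these genes.

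Cluster 3 over ventral mesoderm, a comparison added after these values were seen, had 10 of 40 guidance genes higher (background 6.78%) and 2 lower (background 4.25%), against 11.0% either way. The genes higher were nrp2 (5.55), nrp1 (2.94), efna5 (2.77), sema3a (2.35), sema6a (2.1), efna1 (1.78), epha4 (1.49), robo1 (1.30) and efnb2 (1.07), each with its log2 ratio, and ntn3, with 240 UMIs in cluster 3 and 1 in ventral mesoderm, while sema3f (-2.07) and efna4 (-1.15) were lower. robo1 had its highest level of any cluster in cluster 3, at 304 and 266 CPM.

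epha5, an ephrin-A receptor, marked the nuclei that carry dscaml1 and tp73, which were left without a name. In the inner-like cluster of these nuclei epha5 was at 973 and 1115 CPM and in the outer-like cluster at 886 and 837 CPM, and in the named classes it was at 3.93 to 32.1 CPM. These clusters held 6.59% of the nuclei and 78.2% of the epha5 UMIs, 2798 of 3576. epha5 was at 115 CPM in the doublet-like cluster 15 and at 77.8 CPM in barcodes with under 300 genes.

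Over the named nuclei, 5 of 52 guidance genes were higher in the dscaml1 and tp73 clusters (background 6.63%) and 7 lower (background 4.19%), against 10.8% either way, in a comparison added after the values were seen. All of the higher genes were receptors: epha5 (log2 ratio 6.81, SD 0.23), robo4 (2.63, SD 0.33, on 39 UMIs), epha7 (2.60, SD 0.07), nrp1 (2.28, SD 0.03) and plxnb2 (1.31, SD 0.04). The lower genes were robo3 (-1.65, SD 0.03), sema3a, plxna2, efnb3, efna3, sema4a and sema6b. In the same nuclei, inner-like over outer-like, 8 of 30 guidance genes were higher (background 6.63%) and 3 lower (background 6.99%), against 13.6% either way. The inner-like cluster had 3 of 6 inner-layer markers raised, and also 6 of 6 dorsal endoderm markers. The outer-like cluster had 9 of 9 outer-layer markers raised. Here slit2 was at 386 and 580.3 CPM in the inner-like and 2036 and 1727 CPM in the outer-like cluster, and efna4 at 68.0 and 93.8 CPM in the inner-like and 760.0 and 803 CPM in the outer-like cluster. Of the 14 genes called between the ectoderm layers 11 had enough UMIs here and 10 had the same sign, the exception being nrp2, and of all genes called between the ectoderm layers 95.8% had the same sign.

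The clusters of a pair were compared in the 3 ectoderm classes that held a pair each. In clusters 1 over 9 of inner neural ectoderm 8 of 36 guidance genes were higher (background 3.44%) and 1 lower (background 1.37%), against 4.81% of all genes. In clusters 6 over 2 of inner non-neural ectoderm 7 of 37 were higher (background 2.12%) and none lower (background 1.07%), against 3.18%, and in clusters 10 over 8 of outer non-neural ectoderm 7 of 30 were higher (background 2.20%) and 1 lower (background 2.14%), against 4.34%. These comparisons too were added after the cluster levels were seen. plxna2, plxnb1, plxnb2, unc5b and sema4d, 5 genes, were higher in all 3 pairs. The share of all genes higher in all 3 pairs was not counted, so this number has no background beside it.

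unc5b, a netrin receptor that also binds the adhesion protein Flrt3 in Xenopus, was at 337 and 345 CPM in cluster 1, against 23.2 and 11.8 CPM in cluster 9. It was at 445 and 433 CPM in cluster 6, against 60.6 and 45.5 CPM in cluster 2, and at 340.4 and 329 CPM in cluster 10, against 61.2 and 48.2 CPM in cluster 8. The difference within a class was larger than any between the germ layers for this gene. plxnb1, the receptor of Sema4d, had log2 ratios of 4.05, 2.36 and 1.89 in the pairs, and sema4d itself 2.42, 1.47 and 1.57.

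These pairs were ordered by depth, and gene length moved with that order. The cluster with the higher median UMIs per nucleus was put first, 4492 against 3853, 4621 against 4094.5 and 4615 against 4303.5. A gene called higher in a pair is thus higher in the deeper cluster. Over all genes that span more than 100 kb the median log2 ratios were 0.46, 0.35 and 0.23, and over genes under 10 kb -0.21, -0.20 and -0.25. The guidance genes called higher in cluster 1 span 79.6 to 227 kb with a median ratio of 2.75. The median span of the guidance genes called higher was 123, 119 and 119 kb in the pairs, against 61.9, 93.6 and 59.4 kb for those not called higher. The part of depth and length in the result was not tested.

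**Figure D5:**
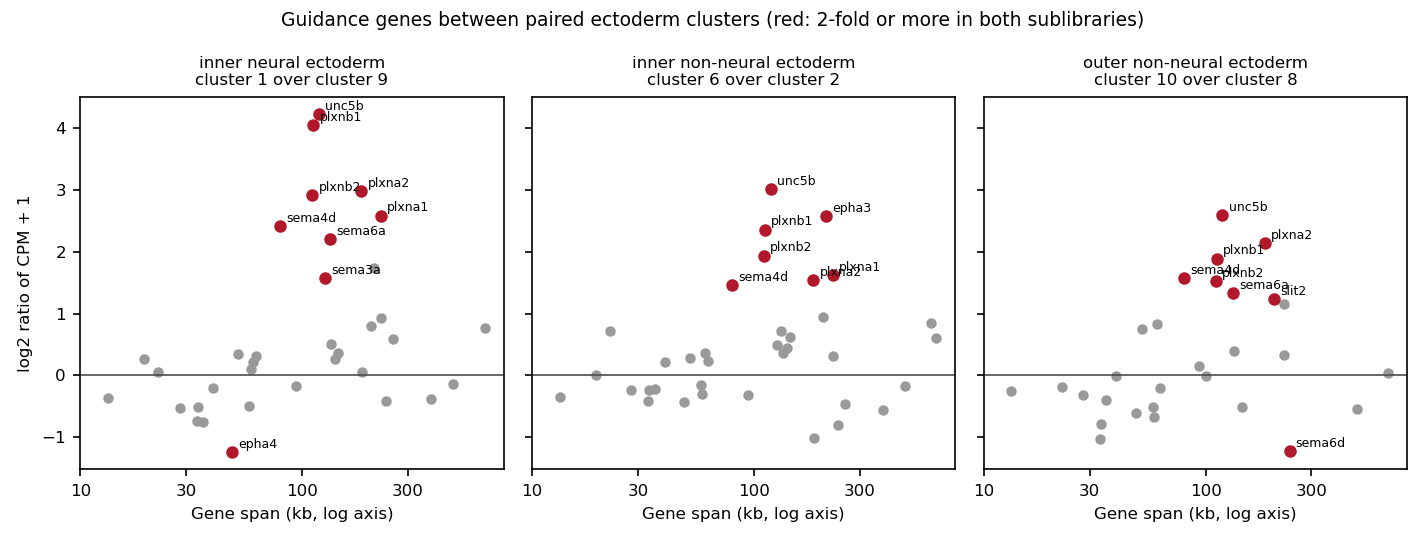
log2 ratio of CPM + 1 between the clusters of a pair (vertical axis) against gene span in kb (horizontal log axis) for the guidance genes with enough UMIs, in 3 ectoderm classes (panels); red points are 2-fold or more in both sublibraries and grey points are not. unc5b, plxna2, plxnb1, plxnb2 and sema4d are red in every panel.

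Selected ligand and receptor genes were paired and compared across the 15 clusters and within nuclei. sema3a, described above as the ligand of Nrp1, was paired with nrp2, and its pair with nrp1 was not compared. slit2 and robo3 levels ran opposite (Pearson r = -0.79, Spearman rho = -0.75), as did sema3f and nrp2 (-0.71 and -0.62) and efna4 and epha4 (-0.60 and -0.71). efnb2 ran with its receptor genes ephb3 (0.84 and 0.90) and epha4 (0.77 and 0.82), and less closely with ephb4 (0.54 and 0.625). The other pairs were slit2 and robo1 (-0.67 and -0.51) and sema3a and nrp2 (0.53 and 0.50). These correlations describe clusters that share libraries and carry no p-value. Within most classes the share of nuclei with a UMI of both genes lay close to the product of the separate shares: of outer ectoderm nuclei 26.6% had both slit2 and robo3 after thinning, where the product is 25.9%. In mesoderm 2.97% of nuclei had both sema3a and nrp2, above the product of 1.09%, and 14.5% had both sema3f and nrp2, under the product of 18.5%, in a class whose clusters differ in these genes. Ventral endoderm, which is cluster 12 alone, also departed from the product. There 35.3% had both sema3f and nrp2, under the product of 42.9%, and 13.75% had both slit2 and robo3, under the product of 16.3%. In outer ectoderm 20.1% had both efnb2 and ephb3, where the product is 16.3%. Depth was held at 2500 UMIs in these shares, and the part of free RNA in them was not tested.

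Genes that act beside these receptors were counted from a list of co-receptors and signalling proteins, of which 52 are in the matrix. Of 45 with enough UMIs 7 were called in ectoderm over mesoderm and endoderm, 1 higher (background 5.29%) and 6 lower (background 7.33%). This share of 15.6% is near the background of 12.6%. flrt3, the adhesion protein that binds Unc5 receptors, was 22.5-fold (95% interval 19.0 to 26.8) lower in ectoderm than in mesoderm and endoderm. In endoderm 4 of 45 were higher (background 8.74%) and 3 lower (background 6.97%), a share of 15.6% beside 15.7% of all genes. In mesoderm 3 were higher (background 3.00%) and 1 lower (background 6.51%), a share of 8.89% beside 9.51%. fyn and chl1 were higher in endoderm (2.24 for fyn and 2.33 for chl1), where rgma, tiam1 and dpysl4 were lower (-1.55, -1.66 and -1.72 in that order). flrt3, nck2 and pdzrn3 were higher in mesoderm (1.57, 1.31 and 1.68 in that order). dpysl3 and vav3 were higher in inner than outer ectoderm (1.17 and 1.97, background 6.17%), and 2 of the 40 partner genes tested there were lower (background 8.44%). The share called either way, 10.0%, was under the 14.6% of all genes, and the lowest partner ratio was -4.26. abl1, chl1 and fyn were higher in dorsal than ventral endoderm (1.18, 1.58 and 1.19 in that order, background 8.98%), and 1 of 28 partner genes was lower (background 13.9%). There 14.3% were called either way, under the 22.9% of all genes, and the lowest partner ratio was -2.83. Between inner neural and inner non-neural ectoderm 0 of 34 partner genes were called, against 3.14% of all genes, and between dorsal and ventral mesoderm, where the signs of guidance genes depended on the clustering, 5 of 32 were, against 7.06%.

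Guidance genes that lie close together differed in level or direction. Not all differed in pattern, since sema3a and sema3c both had their highest cluster level in dorsal endoderm. By the RefSeq annotation of UCB_Xtro_10.0, the assembly to which the reads were aligned, 62 of the 64 genes were placed. sema3a (chromosome 3, 80221214 to 80347720) lies between sema3e (chromosome 3, 80037945 to 80116929) and sema3d (chromosome 3, 80580633 to 80667095), with sema3c (chromosome 3, 79143413 to 79232500) further off. In dorsal endoderm, where sema3a reached 429 CPM, sema3e had 4 UMIs, sema3d 1 and sema3c 11. robo3 (chromosome 7, 75081309 to 75307839) lies close to robo4 (chromosome 7, 74949999 to 75060291), and in inner ectoderm robo3 had 11381 UMIs and robo4 21. efna4 (chromosome 8, 145417879 to 145440270) and efna1 (chromosome 8, 145900081 to 145913370) also lie close together, and efna4 was lower and efna1 higher in dorsal than in ventral endoderm.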

How the data were processed

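Nuclei of pooled wild-type embryos at stage 10.5 were profiled by split-pool barcoding, and the authors aligned the reads to UCB_Xtro_10.0 with the barcoding kit's pipeline and deposited raw UMI counts per gene and nucleus for 2 sublibraries. The submitters' processing notes also name Seurat and Scanpy 1.9.6. Nuclei with at least 1500 detected genes were kept here. The study states more nuclei at this minimum than the barcodes in the files that reach it. Scrublet's automatic threshold called no doublets, so nuclei with a score above 0.15 were removed (784 of 8474, 9.25%).

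After scaling of each nucleus to 10000 counts and a log transform, 2000 variable genes, guidance and partner genes left out, gave 30 principal components, a graph of 15 neighbours and Leiden clusters at resolution 1 (scanpy 1.11.5, leidenalg 0.10.2, numpy 2.4.6, scipy 1.17.1). A cluster took the name of the marker list it scored highest for, given at least 3 raised markers and no more leading genes from other germ layers than from its own; zic1 and chrd are not in the matrix used here. There were marker lists for each class and for the outer and inner ectoderm layers. That rule for leading genes, with its offset of 10 CPM, was set after the marker scores were seen. Names rebuilt in this way may differ from the study's.

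UMIs were summed by class and sublibrary, and ratios were taken on log2(CPM + 1) for genes reaching 50 UMIs over both classes. The log2 scale understates the change of genes of low level. Intervals are exact Poisson or binomial 95% intervals for counting error. For shares of nuclei with a UMI, each nucleus was thinned to 2500 UMIs, and no nucleus was shallower. Genes with enough UMIs were named, and values are given for those called between germ layers or ectoderm layers; partner genes were named only where called, and some of those are not reported here. The members and lists were chosen with earlier results of these data known. In all, 18 alternatives were fixed at the start and 1 was added later. The ratio procedure was tested on simulated data.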

Additional observations from a re-analysis of the deposited data

Results flagged for a closer look

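The difference between dorsal and ventral nuclei had opposite signs in mesoderm and endoderm for a pair of guidance genes, in both sublibraries. nrp2 had a log2 ratio of 3.58 in dorsal over ventral mesoderm and -1.06 in dorsal over ventral endoderm. slit2 had a log2 ratio of 2.26 in dorsal over ventral mesoderm and -2.51 in dorsal over ventral endoderm. These differences were not tested, and both mesoderm ratios changed sign under other settings of the clustering.

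sema4b, at 2.91 CPM in the nuclei kept, was at 4.97 CPM in barcodes with under 300 genes, which enter no comparison.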

How the results depend on the processing

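Calls between germ layers and between ectoderm layers kept their direction under every alternative run, but some fell under 2-fold in at least 1. The log2 ratios nearest 0 were, in ectoderm, efna4 0.93, efnb3 0.82, plxna2 0.57, slit2 0.72 and plxnd1 -0.81. In endoderm they were ephb3 0.79, sema3c 0.56, unc5d 0.70, efnb1 -0.86, sema3f -0.87 and sema4d -0.77, in mesoderm ephb4 0.88, and in inner over outer ectoderm efnb2 0.73, ephb3 0.47, plxnb3 0.64, robo1 0.71, sema6a 0.95, nrp2 -0.66 and unc5d -0.60. In dorsal over ventral endoderm they were epha7 0.92, sema3f -0.49 and the nrp2 and efna1 ratios in the report. In dorsal over ventral mesoderm 8 of the 9 called genes changed sign, plxna2 being the exception, and the reversed log2 ratios follow. With no removal of doublets they were sema3a -0.83, nrp1 -0.33, sema6a -0.64, nrp2 -2.53, ntn3 -2.75, efna5 -0.27, epha4 -0.24 and slit2 -1.15. At resolution 0.5 they were sema3a -1.32, nrp1 -1.16, sema6a -1.17, nrp2 -3.79, ntn3 -3.08, efna5 -1.03, epha4 -0.46 and slit2 -1.23. With 1000 variable genes they were nrp1 -0.11, nrp2 -0.81 and ntn3 -0.31. With 4000 variable genes they were nrp2 -1.11 and ntn3 -0.91. With guidance and partner genes kept in the clustering they were sema3a -0.75, nrp1 -0.18, sema6a -0.80, nrp2 -2.99, ntn3 -2.87, efna5 -0.41, epha4 -0.36 and slit2 -1.30. With clusters named whatever their leading genes they were nrp1 -0.14, sema6a -0.054, nrp2 -1.10, ntn3 -0.99 and efna5 -0.15. The last of these was chosen after seeing the data. A minimum of 2000 genes gave no value for this comparison.

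The counts of guidance genes called moved by over 1.5 times in these cases. In ectoderm 22 were called at a minimum of 1000 genes. In mesoderm 8 were called at that minimum, 11 at resolution 0.5, 9 with 4000 variable genes and 10 with clusters named whatever their leading genes, and between 5 and 10 without replicate 2 or replicate 1. Inner over outer ectoderm gave 8 at a minimum of 2000 genes, and inner neural over inner non-neural ectoderm gave 1 with no removal of doublets and 4 without replicate 1 or replicate 2. Dorsal over ventral mesoderm gave 5 at resolution 1.5, 4 with 1000 and 5 with 4000 variable genes, and 4 with clusters named whatever their leading genes. With no UMI minimum dorsal over ventral endoderm gave 17, and 12 ligands were highest in ectoderm. The causes were not tested, beyond the fewer or more genes and nuclei that some of these settings admit. Over all alternatives the endoderm count ranged between 14 and 24. The share of all genes called was counted at the main setting only.

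No paired analysis was possible because the results come from no test: ratios were already taken within each sublibrary, and the pool has no biological replicate. Both sublibraries come from 1 pool, so variation between embryos was not measured.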
